A study of Mus musculus with 4 samples.

Results

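The protocadherins described here lie outside the protocadherin gene cluster of mouse chromosome 18 and are known as non-clustered, or delta, protocadherins. They were chosen by symbol: Pcdh1, Pcdh7, Pcdh8, Pcdh9, Pcdh10, Pcdh15, Pcdh17, Pcdh18 and Pcdh20, which are 9 of the 32285 genes in the count tables. All 9 were found. The rule itself used no measured value, but earlier results of these data were known when the members were chosen. Nuclei came from the cortex of 5-month-old C57BL/6 mice, from 2 Setdb1-CK-cKO animals and 2 wildtype animals, with 1 library of single-nucleus RNA per animal. Setdb1 encodes an enzyme that methylates lysine on histone H3, and cKO stands for conditional knockout. The labels do not say what CK stands for, which exons were deleted or in which cells, and no allele is named for the wildtype animals. The comparison asks where, among the cell types of the cortex, RNA of these adhesion genes differs between knockout and wildtype animals.

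Delta protocadherins are single-pass membrane proteins of the cadherin superfamily. Their extracellular cadherin repeats bind calcium and let a protocadherin on one cell stick weakly to the same protocadherin on a neighbouring cell, and their cytoplasmic tails differ between subgroups. Pcdh1, Pcdh7 and Pcdh9 belong to the delta-1 subgroup, whose tails carry a binding motif for protein phosphatase 1. Pcdh8, Pcdh10, Pcdh17 and Pcdh18 belong to the delta-2 subgroup, of which Pcdh10 and Pcdh17 are known to recruit the WAVE complex, a regulator of actin. Pcdh20 is usually set apart from both, and Pcdh15 is a larger and more distant relative, best known as a component of the tip link of inner ear hair cells. In the brain the family is known for roles in axon outgrowth, cell sorting and synapse formation.

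Expression was measured as unique molecular identifiers (UMIs), each standing for 1 captured RNA molecule. The 4 libraries held 38314394 to 45605971 UMIs in 11790 to 14493 barcodes, and pairs of libraries shared 48 to 64 barcodes. After filtering, 47136 nuclei fell into 11 classes that were named from marker genes and are therefore like those cell types rather than proven to be them, and the neurons were further divided into 20 subclasses. The labels were checked against the RNA. Setdb1 RNA was 69.6 and 65.8 counts per 1000000 UMIs (CPM) in the knockout libraries, against 68.9 and 64.5 CPM in the wildtype libraries, but tags at the 3′ end may lie outside the deleted part and so check nothing. The RNA of Xist and of Y-linked genes went against the listed sex in both knockout libraries, and each genotype held 1 library of either pattern. Ribosomal protein genes took 0.658% and 0.762% of UMIs in the knockout libraries, against 0.489% and 0.528% in the wildtype libraries. The labels do not say how each animal was bred or handled, so p-values measure the spread between these 4 samples alone.

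For the tests, UMIs were summed per library and cell type, so the animal is the replicate (n = 2 per genotype). A difference is given as a log2 fold change of knockout over wildtype with its standard error (SE), from the quasi-likelihood test of edgeR over all genes of a cell type, and a gene passed where its Benjamini-Hochberg adjusted p was under 0.05. Values in CPM are given for replicates 1 and 2 of each genotype in that order. A fit that leaves out 1 library keeps only 1 in that genotype and unbalances the Xist and Y-linked patterns. Such fits therefore cannot separate the library from that pattern. CPM counts tags and is not scaled by gene length, so levels are compared between cell types and not between genes. Subclass names use the cortical layer (L2 to L6) and the projection type, in which IT is intratelencephalic, ET extratelencephalic, NP near-projecting and CT corticothalamic. Neuron clusters that matched no single subclass, or shared one, carry the name of a leading gene.

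The members are spread over chromosomes 3, 5, 10, 14 and 18, and 4 of them lie on chromosome 14 (GRCm38, GENCODE vM21). Pcdh15 spans 1550.4 kb at chr10:73099342-74649737 on the plus strand, Pcdh9 spans 877.3 kb at chr14:93013410-93890679 on the minus strand, and Pcdh7 spans 415.3 kb at chr5:57717967-58133230 on the plus strand. These are the only 3 members of at least 400 kb. Pcdh17 spans 95.4 kb at chr14:84443563-84539002 on the plus strand, and Pcdh10 spans 57.2 kb at chr3:45378398-45435623 on the plus strand. The remaining members are shorter, at 26.1 kb for Pcdh1 (chr18:38185914-38212053, minus), 14030 bases for Pcdh18 (chr3:49743296-49757325, minus), 6.7 kb for Pcdh20 (chr14:88464743-88471396, minus) and 4.5 kb for Pcdh8 (chr14:79766775-79771312, minus).

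Pcdh9, Pcdh18 and Pcdh20 overlap no other gene of the count table. Pcdh15 overlaps Gm15397 on its own strand and Gm15398 on the other, and Pcdh17 overlaps 9630013A20Rik and Pcdh7 overlaps 4932441J04Rik on the other strand. Whether strand and introns were used in counting is not given in the sources used here. It could therefore not be checked whether reads of such partners were kept apart from those of the member.

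The members that passed the test in at least 1 cell type were Pcdh9, Pcdh17, Pcdh7 and Pcdh15, and their promoters are shown because Setdb1 acts on chromatin and CG dinucleotides are the sites of DNA methylation in mammals. Each sequence is the 250 bases before the RefSeq start site (GRCm38.p6), 5′ to 3′ on the gene's strand, with CG dinucleotides in capitals. The windows are chr14:93890680-93890929 (minus) for Pcdh9, chr14:84443313-84443562 (plus) for Pcdh17, chr5:57717831-57718080 (plus) for Pcdh7 and chr10:73821617-73821866 (plus) for Pcdh15.
Pcdh9: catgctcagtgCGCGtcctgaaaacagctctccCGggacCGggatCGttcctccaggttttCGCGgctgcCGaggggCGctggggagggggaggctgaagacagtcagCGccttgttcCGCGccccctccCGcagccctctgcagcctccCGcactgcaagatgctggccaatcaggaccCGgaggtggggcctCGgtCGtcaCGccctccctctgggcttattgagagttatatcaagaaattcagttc
Pcdh17: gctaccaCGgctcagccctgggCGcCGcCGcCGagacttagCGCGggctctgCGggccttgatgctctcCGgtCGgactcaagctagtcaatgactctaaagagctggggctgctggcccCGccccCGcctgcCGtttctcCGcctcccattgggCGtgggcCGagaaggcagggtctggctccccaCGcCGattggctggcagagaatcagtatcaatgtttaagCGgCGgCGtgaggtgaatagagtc
Pcdh7: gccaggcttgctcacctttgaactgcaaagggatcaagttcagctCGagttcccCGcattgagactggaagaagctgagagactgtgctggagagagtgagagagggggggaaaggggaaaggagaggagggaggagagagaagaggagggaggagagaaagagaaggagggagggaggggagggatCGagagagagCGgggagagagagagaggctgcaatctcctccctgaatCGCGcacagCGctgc
Pcdh15: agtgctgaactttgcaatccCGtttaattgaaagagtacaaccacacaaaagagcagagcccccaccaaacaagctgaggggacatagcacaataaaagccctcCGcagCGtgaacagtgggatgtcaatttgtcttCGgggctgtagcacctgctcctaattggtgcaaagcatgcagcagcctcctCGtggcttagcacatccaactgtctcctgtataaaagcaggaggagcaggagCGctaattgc
CG, which reads the same on both strands, occurred in 92.1% of 32851 RefSeq promoters of this length, with a median of 6. Pcdh17 held 21 and Pcdh9 held 18, counts that 16.3% and 21.7% of all promoters reached. Pcdh7 held 7 and Pcdh15 held 6, counts that 46.3% and 50.4% of all promoters reached. The RefSeq start of Pcdh15 lies inside the longer GENCODE gene. Among the members that did not pass, Pcdh18 held 23, Pcdh10 22, Pcdh8 11 and Pcdh20 3, and the promoter of Pcdh1 was not counted. The members that passed in the tests described next thus held from the median CG count to counts well above it. No methylation or binding was measured in these nuclei.

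In wildtype nuclei each abundant member had its own order of cell types, and glia led for most of them. Pcdh9 was highest in oligodendrocytes at 7358 ± 47.3 CPM (SD, n = 2), which stood apart from every library of the next class, and the other classes ran down to 978 CPM in microglia. Of its 10 pairs of neighbouring classes only that first pair did not overlap once the knockout libraries were counted too. Among neurons Pcdh9 averaged 5686 CPM in L6 CT, 5091 CPM in L6b and 5008 CPM in the Htr1d cluster, and 1882 CPM in L5 ET and 1700 CPM in Vip neurons. L6 CT and L6b, which lie next to the white matter, thus held the upper end, although neighbours in that order overlapped in 19 of 19 pairs once all libraries were counted.

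Among classes Pcdh15 was highest in oligodendrocyte precursors, at 2178 ± 15.04 CPM, apart from excitatory neurons at 866 ± 15.7 CPM and from the rest down to 165 CPM in microglia (SD, n = 2). Oligodendrocytes are the progeny of these precursors and held Pcdh15 at 228.1 and 188.1 CPM in the knockout libraries and 218.9 and 245.2 CPM in the wildtype libraries. Within neurons the range was 15.7-fold. The claustrum or L6 Car3 neurons led at 2676 ± 54.2 CPM, the Fermt1 cluster followed at 2338 ± 79.4 CPM and the Il1rapl2 cluster of L4/5 IT at 1471 ± 74.5 CPM, while L5 ET held 170 CPM (SD, n = 2). Among the members with wildtype UMIs in every subclass Pcdh15 thus had the widest span.

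Pcdh7 led in committed oligodendrocyte precursors at 1477 ± 210 CPM and was next in astrocytes at 972 ± 31.6 CPM, both apart from their lower neighbour (SD, n = 2). Its lowest classes were oligodendrocytes at 290 CPM and microglia at 283 CPM, which overlapped. Among neurons L5/6 NP led at 1176 CPM, apart from L6 CT at 1049 CPM, and Lamp5 or Sncg neurons were lowest at 321 CPM. Pcdh17 had the same first class, at 552 ± 94.7 CPM, followed by oligodendrocyte precursors at 256 ± 18.04 CPM (SD, n = 2). Among neurons it was highest in L5/6 NP at 334 CPM and lowest in the Il1rapl2 cluster at 59.3 CPM. Committed precursors were few, and they formed no class of their own at a coarser clustering.

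Pcdh10 was highest in astrocytes at 198 ± 10.7 CPM and oligodendrocyte precursors at 182 ± 0.624 CPM, which overlapped once the knockout libraries were counted (SD, n = 2). Pcdh1 ran from 59.2 CPM in endothelial cells, a value that rests on 8 wildtype UMIs, to 22.5 CPM in inhibitory neurons, with 0 of 10 neighbouring pairs apart once the knockout libraries were counted. Pcdh8, Pcdh20 and Pcdh18 were sparse, with 312, 117 and 60 UMIs in all knockout nuclei of the named classes and 356, 141 and 58 UMIs in all wildtype nuclei. Pcdh18 led in mural cells at 11.4 CPM, a value that rests on 2 wildtype UMIs. Free RNA gives a low level to every cell type in such data, so the order of these 3 genes among classes was not resolved at this depth.

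**Figure D1:**
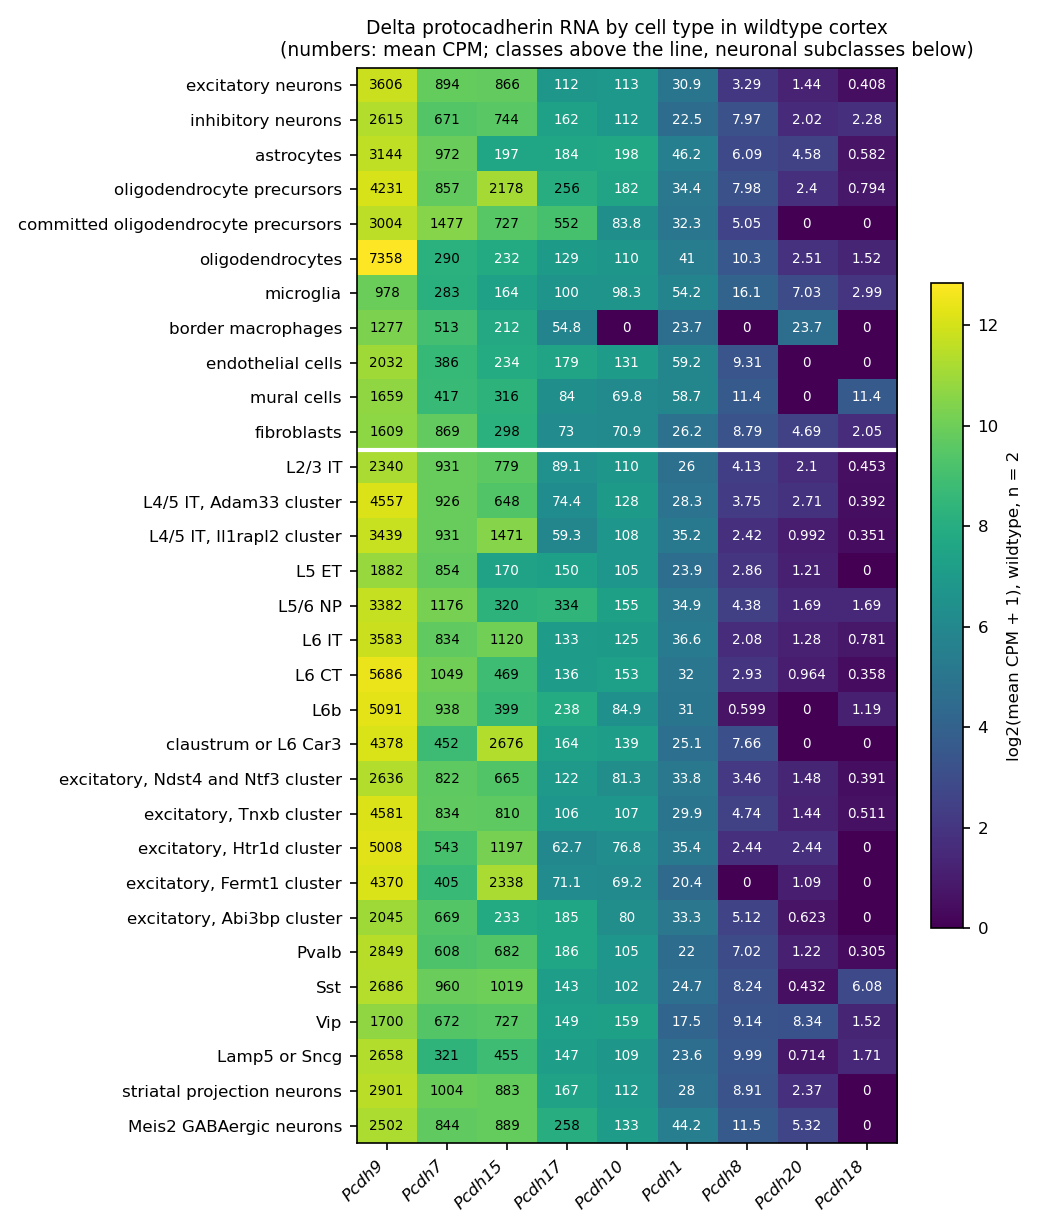
Wildtype level of each member in every named cell type, as the mean CPM of 2 libraries on a log colour scale, with the 11 classes above the line and the 20 neuron subclasses below it. Each column should be read down, not across, because CPM is not scaled by gene length; Pcdh9 peaks in oligodendrocytes at 7358 CPM and Pcdh15 in Car3 neurons and oligodendrocyte precursors.

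Likeness of level was described over the 31 classes and subclasses of wildtype nuclei, as Pearson's r of mean log2(CPM + 1) among 18560 genes with at least 5 CPM somewhere. These points share libraries, and the neuron classes contain their own subclasses. The genes most like Pcdh15 were its overlapping neighbours Gm15398 (r = 0.936) and Gm15397 (r = 0.896), and then the glutamate receptor gene Gria4 (r = 0.775). The gene most like Pcdh17 was its overlapping neighbour 9630013A20Rik (r = 0.868), before the adhesion gene Ncam1 (r = 0.755) and Lrrc4b (r = 0.726). Thus for both members the closest pattern belonged to a gene whose reads may not be separable from theirs. For Pcdh9, which overlaps no other gene of the count table, the leaders were Gm11659 (r = 0.722), Mapt, which encodes the microtubule protein tau (r = 0.706), and 4930593A02Rik (r = 0.706). For Pcdh7 they were the clustered protocadherin Pcdhb21 (r = 0.728), Csgalnact1 (r = 0.689) and Gm15342 (r = 0.672). For Pcdh10 they included Ddx1 (r = 0.965) and Zc3h14 (r = 0.965), and Pcdh10 was at 0 in wildtype border macrophages. For the members at low level they were Rprml, Creb1 and S100a13 for Pcdh1 (r of 0.784, 0.781 and 0.764), Slc32a1, Borcs6 and Gm13889 for Pcdh8 (r of 0.856, 0.826 and 0.825), Tldc2, Commd5 and Gm15866 for Pcdh18 (r of 0.789, 0.759 and 0.75) and Tmem37, Gm28982 and Gm47200 for Pcdh20 (r of 0.823, 0.804 and 0.801). Slc32a1 encodes the vesicular GABA transporter. Between members themselves r ran from -0.46 for Pcdh10 and Pcdh20 to 0.516 for Pcdh8 and Pcdh10, so no pair of members followed each other closely.

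Between genotypes, 9 classes and 18 neuron subclasses had at least 30 nuclei in each library and were tested. Over the 9 classes 54 tests of members gave 1 lower call and 0 higher calls, against a background of 1.28% of all gene tests called, 0.393% as lower and 0.884% as higher. Over the 18 subclasses 112 tests gave 9 lower and 2 higher calls, against 1.61% of all gene tests called, 0.557% as lower and 1.05% as higher. Subclasses are parts of the classes, so these tests are not independent of each other. Pcdh9 accounted for 8 of the 10 lower calls, Pcdh15 and Pcdh7 for 1 each and Pcdh17 for both higher calls. Pcdh1, Pcdh8, Pcdh10, Pcdh18 and Pcdh20 passed nowhere. With DESeq2 in place of edgeR 2 of these 12 calls passed, Pcdh15 in the Fermt1 cluster and Pcdh17 in the Il1rapl2 cluster, and all 12 kept their direction.

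Pcdh9 was the member with the most widespread difference. Its log2 fold change was negative in 9 of 9 classes and 18 of 18 subclasses. Of all genes of at least 400 kb, the length group of Pcdh9, 62.5% to 83.5% were negative in the classes and 62.4% to 77.6% in the subclasses. Both knockout libraries lay below both wildtype libraries for Pcdh9 in 9 of 9 classes and 16 of 18 subclasses. The share of all genes with groups apart in this way was not counted, and the cell types share the same animals. In excitatory neurons, where 4.26% of all genes passed, Pcdh9 was at 3232 and 3099 CPM in the knockout libraries, against 3725 and 3487 CPM in the wildtype libraries. The groups did not overlap, yet the change of -0.22 ± 0.0504 had an edgeR adjusted p of 0.0514 and missed the threshold. Without wildtype replicate 1, the library with the highest level, it was -0.16 with an adjusted p of 0.399, and without each of the other libraries in turn it was -0.27 to -0.20 with adjusted p of 0.00849 to 0.027. In inhibitory neurons, where 1.06% of genes passed and 0.256% passed as lower, Pcdh9 was at 2281 and 2255 CPM in the knockout libraries, against 2577 and 2653 CPM in the wildtype libraries. This difference passed at -0.22 ± 0.048 with an edgeR adjusted p of 0.0417, which is 14.4% lower. The call was lost without wildtype replicate 1 (adjusted p 0.161) or wildtype replicate 2 (0.187). The excitatory and inhibitory changes differed by 0.04 ± 0.0544 with an edgeR adjusted p of 0.909 for the difference.

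Among excitatory subclasses Pcdh9 passed in 7, all in layers 4 to 6 or in clusters without a layer name. In L6 CT neurons, which project to the thalamus and had the highest neuronal level, it was at 5059 and 4807 CPM in the knockout libraries, against 5854 and 5519 CPM in the wildtype libraries. In L6b neurons it was at 4407 and 3959 CPM in the knockout libraries, against 5249 and 4934 CPM in the wildtype libraries. The changes were -0.22 ± 0.0416 in L6 CT (edgeR adjusted p 0.00346) and -0.30 ± 0.0562 in L6b (edgeR adjusted p 0.00355). In these cell types 4% and 1.07% of all genes passed, with 1.19% and 0.394% of them lower. In both, the higher knockout library stayed below the lower wildtype library. The L6b call was kept without each library in turn, and the L6 CT call was lost without wildtype replicate 1 (-0.17, adjusted p 0.164).

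In the Adam33 cluster of L4/5 IT neurons Pcdh9 was at 4117 and 3730 CPM in the knockout libraries, against 4616 and 4498 CPM in the wildtype libraries. In the Il1rapl2 cluster of the same layers it was at 3109 and 2696 CPM in the knockout libraries, against 3491 and 3388 CPM in the wildtype libraries. These layers receive the sensory input of the cortex, and in both clusters the groups were apart. The changes were -0.25 ± 0.0505 (edgeR adjusted p 0.0102) and -0.27 ± 0.0576 (edgeR adjusted p 0.0265), where 3.72% and 3.29% of all genes passed, 1.38% and 1.28% as lower. In L5/6 NP neurons Pcdh9 was at 2974 and 2581 CPM in the knockout libraries, against 3603 and 3161 CPM in the wildtype libraries, a change of -0.30 ± 0.0775 (edgeR adjusted p 0.0351, with 1.39% of genes called and 0.499% as lower). In the claustrum or L6 Car3 neurons it was at 3731 and 3562 CPM in the knockout libraries, against 4685 and 4071 CPM in the wildtype libraries, a change of -0.31 ± 0.0757 (edgeR adjusted p 0.0236, with 1.96% called and 1.02% as lower). In the Tnxb cluster it was at 4122 and 3692 CPM in the knockout libraries, against 4493 and 4669 CPM in the wildtype libraries, a change of -0.24 ± 0.0537 (edgeR adjusted p 0.0182, with 1.25% called and 0.443% as lower). The calls in the Adam33 and Il1rapl2 clusters were kept without each library in turn. That in L5/6 NP was lost without wildtype replicate 1 or knockout replicate 2 (adjusted p 0.687 and 0.189), that in Car3 neurons without the same libraries (0.353 and 0.131) and that in the Tnxb cluster without knockout replicate 2 (0.0527). The changes that passed in the 7 subclasses ran from 14.1% to 19.1% below wildtype, a range that the threshold itself helps to set. Over all 18 tested subclasses the log2 fold change of Pcdh9 ran from -0.42 in striatal projection neurons to -0.05 in L2/3 IT neurons.

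Where Pcdh9 did not pass, its changes ran from near 0 to larger than in neurons. In oligodendrocytes, its class of highest level, it was at 7197 and 6781 CPM in the knockout libraries, against 7392 and 7325 CPM in the wildtype libraries, a change of -0.05 with an edgeR adjusted p of 0.744. In microglia it was at 483 and 682 CPM in the knockout libraries, against 1022 and 935 CPM in the wildtype libraries, a change of -0.74 ± 0.178 with an edgeR adjusted p of 0.216. In fibroblasts it was at 807 and 945 CPM in the knockout libraries, against 1549 and 1670 CPM in the wildtype libraries, a change of -0.88 ± 0.244 with an edgeR adjusted p of 0.343. In these sparse classes few genes passed at all, 0.0672% in microglia and 0.034% in fibroblasts, and none of the members did. Mural and endothelial cells, where 0% of genes passed, gave -0.84 and -0.95 with edgeR adjusted p of 0.542 and 0.725. Oligodendrocyte precursors and astrocytes gave -0.16 and -0.18 with edgeR adjusted p of 0.663 and 0.664, where 0.0218% and 0.464% of genes passed. In oligodendrocytes 0.469% of genes passed. Among inhibitory subclasses Pvalb, Sst, Vip and Lamp5 or Sncg neurons gave -0.20, -0.23, -0.17 and -0.19, and none passed, where 0.338%, 0.762%, 0.349% and 0.367% of genes did. In L2/3 IT neurons, the upper-layer subclass, the change was -0.05, where 1.37% of genes passed. In L5 ET and L6 IT neurons it was -0.14 and -0.21, where 1.27% and 2.12% of genes passed. It was -0.20 in the Htr1d cluster, where 0.463% passed, and -0.42 in striatal projection neurons, where 0.191% passed. In the Ndst4 and Ntf3 cluster 1.14% of genes passed and Pcdh9 did not.

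**Figure D2:**
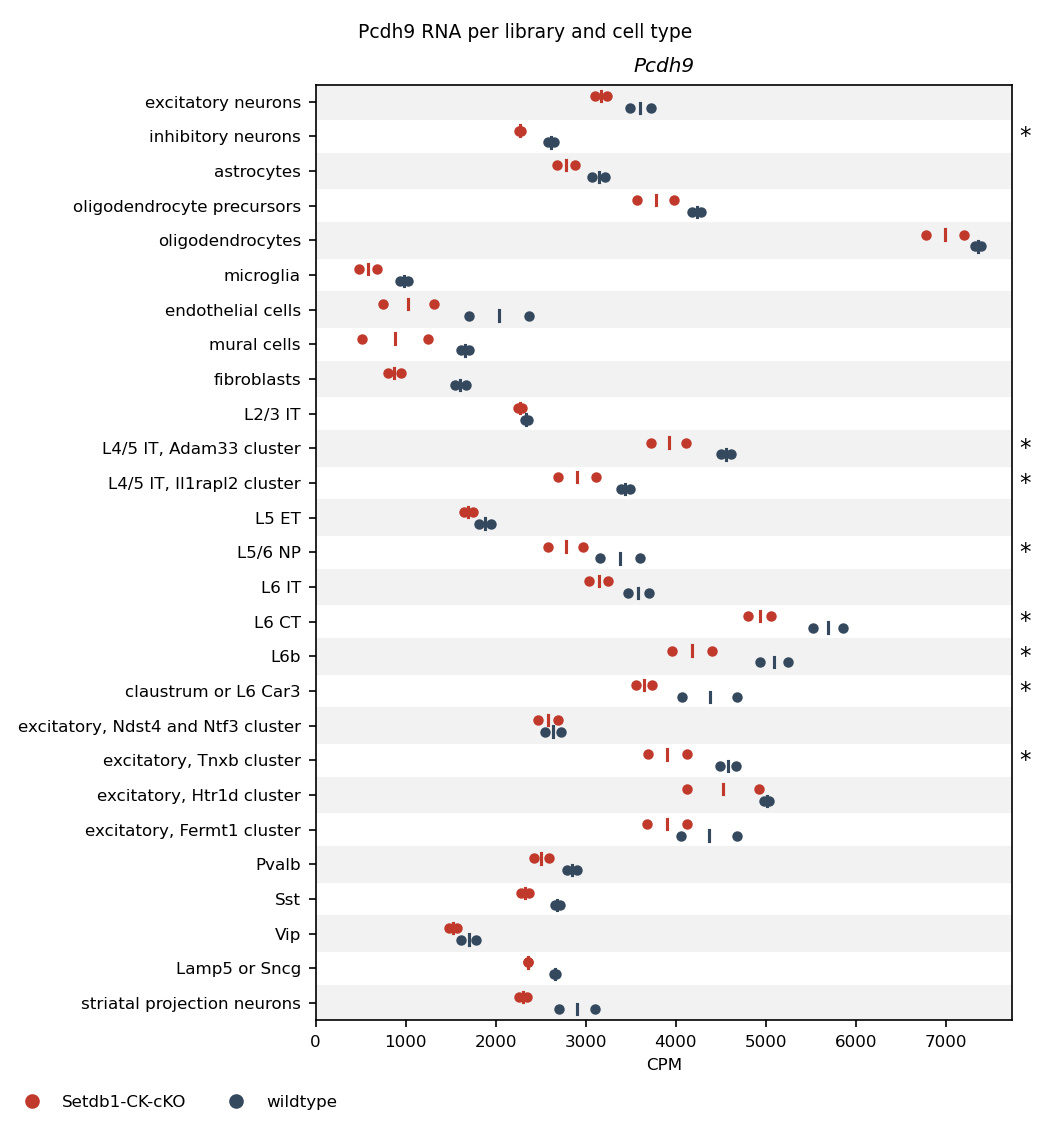
Pcdh9 level in CPM (horizontal axis) in each library for the 9 tested classes and 18 tested subclasses. Within a row, knockout is drawn above wildtype. Bars are group means of 2 libraries and an asterisk marks an edgeR adjusted p under 0.05. Both knockout values are lower than both wildtype values in 9 of 9 classes and 16 of 18 subclasses, the exceptions being the Fermt1 cluster and the Ndst4 and Ntf3 cluster.

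RNA of other cell types moved with some of these differences. Summed RNA of 8 oligodendrocyte markers, the cells in which Pcdh9 is highest, was 204 and 215 CPM in inhibitory neurons of the knockout libraries, against 244 and 269 CPM in those of the wildtype libraries. In excitatory neurons the same sum was 197 and 197 CPM in the knockout libraries, against 207 and 226 CPM in the wildtype libraries. In microglia it was 546 and 559 CPM in the knockout libraries, against 728 and 753 CPM in the wildtype libraries. In those 3 classes the knockout sum lay below the wildtype sum, and none of the 8 markers was at 0. The knockout sum lay below the wildtype sum in 6 of 9 classes and 9 of 18 subclasses. Of the 7 subclasses in which Pcdh9 passed, the 2 genotypes overlapped in the Adam33 cluster, L6b, Car3 and Tnxb subclasses, and the knockout sum was below in the other 3. These were L6 CT at 190 and 194 CPM in the knockout libraries, against 202 and 220.5 CPM in the wildtype libraries, the Il1rapl2 cluster at 193 and 182 CPM in the knockout libraries, against 215 and 213 CPM in the wildtype libraries, and L5/6 NP at 228 and 238 CPM in the knockout libraries, against 272 and 331 CPM in the wildtype libraries. In fibroblasts the genotypes overlapped. Other marker lists fell as well. The sum of 8 astrocyte markers lay below in 4 of 9 classes and 11 of 18 subclasses, and above in 0 of either. Of the subclasses in which Pcdh9 passed, it lay below in the Adam33 cluster, the Il1rapl2 cluster, L5/6 NP, L6b and the Tnxb cluster and overlapped in the others. L6 CT markers lay below in 9 of 18 subclasses, whereas oligodendrocyte precursor markers lay below in 2 and above in 11. The part of RNA of other cell types in the Pcdh9 difference was not tested.

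Markers that name some of these subclasses moved in the same direction as Pcdh9. Summed RNA of 6 Car3 markers in the claustrum or L6 Car3 neurons was 1751 and 1515 CPM in the knockout libraries, against 2057 and 2309 CPM in the wildtype libraries. Summed RNA of 6 L6 CT markers in L6 CT neurons was 2997 and 3239 CPM in the knockout libraries, against 3409 and 3578 CPM in the wildtype libraries. Summed RNA of 6 L4/5 IT markers in the Il1rapl2 cluster was 957 and 885 CPM in the knockout libraries, against 1249 and 1178 CPM in the wildtype libraries, whereas in the Adam33 cluster it was 1383 and 1367 CPM in the knockout libraries, against 1333 and 1192 CPM in the wildtype libraries. The knockout sums thus lay below in the first 3 subclasses and above in the Adam33 cluster, where Pcdh9 also passed. The part of these markers in the Pcdh9 difference was not tested.

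Gene length also moved with the difference. In excitatory neurons the median log2 fold change was 0.03 over genes under 50 kb and -0.12 over the 368 genes of at least 400 kb, of which 12% were called lower and 2.72% higher. The median over genes of at least 400 kb was below 0 in 9 of 9 classes and 18 of 18 subclasses, and the median over genes under 50 kb was above 0 in all of them. Pcdh9, at 877.3 kb, lay below the median of its length group in 8 of 9 classes and 15 of 18 subclasses, by a median of -0.13 in classes and -0.10 in subclasses. In the 8 cell types where it passed it lay -0.21 to -0.10 from that median. Of all genes of at least 400 kb, 5.67% to 15.5% were called lower in those 8 cell types. Over genes of any length that share was 0.256% to 1.38%. Pcdh7 and Pcdh15, the other members of this length, lay below it in 4 and 2 of 9 classes and in 7 and 9 of 18 subclasses. Pcdh10 lay below the median of its own, shorter length group in 15 of 18 subclasses, by a median of -0.11, and in 3 of 7 classes. The part of gene length in these results was not tested.

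**Figure D3:**
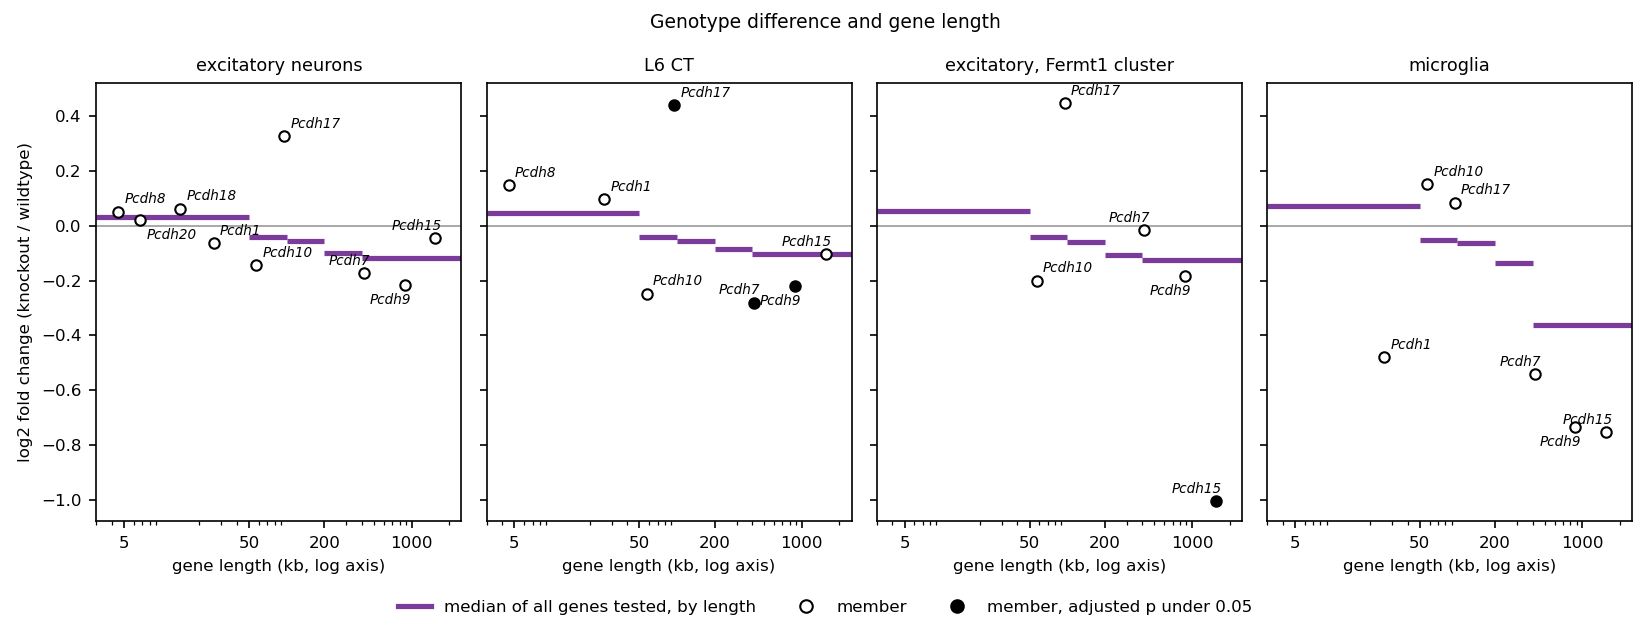
Log2 fold change of each member, knockout over wildtype, against gene length in kb on a log axis, with the median of all tested genes per length group, in excitatory neurons, L6 CT neurons, the Fermt1 cluster and microglia. The medians fall with length, to -0.12 at 400 kb or longer in excitatory neurons, and Pcdh9 lies below the median of its group in each panel while Pcdh17 lies above its own in the neuron panels.

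Pcdh7, the other abundant delta-1 member, was negative in 17 of 18 subclasses and 8 of 9 classes, with Vip neurons at 0.14 and fibroblasts at 0.19 as the exceptions. Most genes of its length group, at least 400 kb, were also negative in each tested class and subclass. It passed in L6 CT neurons alone. There it was at 837 and 907 CPM in the knockout libraries, against 1079 and 1018 CPM in the wildtype libraries, and the groups did not overlap. The change of -0.28 ± 0.0786 had an edgeR adjusted p of 0.0492, close to the threshold, and lay -0.18 from the median of genes of its length. Of those genes 12% were called lower in L6 CT neurons. The Pcdh7 result there depended on the libraries used. It lost the call without wildtype replicate 1 (adjusted p 0.547), wildtype replicate 2 (0.0725) or knockout replicate 1 (0.115), and kept it without knockout replicate 2 (0.000728). In the Adam33 cluster Pcdh7 was at 762 and 783 CPM in the knockout libraries, against 919.5 and 932 CPM in the wildtype libraries, a change of -0.29 ± 0.0826 with an edgeR adjusted p of 0.0626. Over excitatory neurons as a whole it was at 770 and 847 CPM in the knockout libraries, against 884 and 904 CPM in the wildtype libraries, a change of -0.17 with an edgeR adjusted p of 0.212. The overlapping gene 4932441J04Rik gave 10.6 and 11.8 CPM in L6 CT neurons of the knockout libraries, against 10.9 and 10.6 CPM in those of the wildtype libraries. Pcdh1, the third delta-1 member, was tested in 6 classes and 17 subclasses and passed in none, with -0.06 in excitatory neurons and -0.48 in microglia (edgeR adjusted p 0.819 and 0.653).

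Pcdh17 was the only member with higher calls. It was positive in 17 of 18 subclasses, where 52.7% to 60.4% of all genes of its length group (50 to 100 kb) were negative. In 11 subclasses the lower knockout library exceeded the higher wildtype library, and the share of all genes that did so was not counted. In the Il1rapl2 cluster, its neuron subclass of lowest wildtype level, it was at 76.8 and 115 CPM in the knockout libraries, against 58.9 and 59.7 CPM in the wildtype libraries. In L6 CT neurons it was at 163 and 210.1 CPM in the knockout libraries, against 134 and 139 CPM in the wildtype libraries. Knockout replicate 2 was the higher knockout library in both, and the groups did not overlap. The changes were 0.67 ± 0.161 (edgeR adjusted p 0.0427) and 0.44 ± 0.12 (edgeR adjusted p 0.0423), where 2.02% and 2.81% of all genes passed as higher. Without knockout replicate 2 they were 0.34 and 0.23 with edgeR adjusted p of 0.215 and 0.514, so both calls were lost without that library. The L6 CT call was also lost without wildtype replicate 1 (adjusted p 0.249) and wildtype replicate 2 (0.12).

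Oligodendrocyte precursors held the second-highest level of Pcdh17 among classes, and the summed RNA of 6 of their markers lay above wildtype in 11 of 18 knockout subclasses. In L6 CT neurons the sum was 544 and 713 CPM in the knockout libraries, against 125 and 119 CPM in the wildtype libraries. In the Il1rapl2 cluster it was 115.5 and 203 CPM in the knockout libraries, against 89.2 and 105 CPM in the wildtype libraries. None of the 6 was at 0, and most of the sum was Lhfpl3, at 525 and 692 CPM in L6 CT neurons of the knockout libraries, against 102 and 95.1 CPM in those of the wildtype libraries. Pdgfra, the receptor that defines these precursors, was at 2.07 and 0.846 CPM in L6 CT neurons of the knockout libraries, against 2.22 and 2.45 CPM in those of the wildtype libraries. Vcan was also lower there, and Cspg4, Olig1 and Sox10 overlapped. In the Il1rapl2 cluster Lhfpl3 was at 97.9 and 183 CPM in the knockout libraries, against 70.85 and 84.95 CPM in the wildtype libraries. Olig1 and Sox10 lay above there too, Pdgfra and Cspg4 below, and Vcan overlapped. The part of precursor RNA in the Pcdh17 difference was not tested.

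Over excitatory neurons Pcdh17 was at 124 and 162 CPM in the knockout libraries, against 114 and 109.9 CPM in the wildtype libraries, a change of 0.33 ± 0.123 with an edgeR adjusted p of 0.18. Without knockout replicate 2 it was 0.10 (adjusted p 0.691) and without knockout replicate 1 it was 0.51 (adjusted p 0.00356). The size of the change thus followed the library, with knockout replicate 2 the highest of the 4. Its largest subclass value was in the Htr1d cluster, at 116 and 126 CPM in the knockout libraries, against 73.9 and 51.5 CPM in the wildtype libraries, a change of 0.88 ± 0.251 with an edgeR adjusted p of 0.251. In inhibitory neurons Pcdh17 was at 168 and 180 CPM in the knockout libraries, against 165 and 159 CPM in the wildtype libraries, a change of 0.09. The excitatory change exceeded the inhibitory one by 0.27 ± 0.0883, with an edgeR adjusted p of 0.218 for the difference. The overlapping gene 9630013A20Rik gave 14.3 and 14.1 CPM in the Il1rapl2 cluster of the knockout libraries, against 8.29 and 10.2 CPM in that of the wildtype libraries. In L6 CT neurons it gave 25.7 and 28.8 CPM in the knockout libraries, against 23.8 and 19.9 CPM in the wildtype libraries. It did not pass in either (edgeR adjusted p 0.162 and 0.478), and its part in the Pcdh17 difference was not tested.

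The other delta-2 members passed nowhere. Pcdh10 was negative in 16 of 18 subclasses, where 52.7% to 60.4% of all genes of 50 to 100 kb were negative. In excitatory neurons it was at 98.2 and 111 CPM in the knockout libraries, against 106 and 121 CPM in the wildtype libraries. Those groups overlapped, at -0.14 with an edgeR adjusted p of 0.45. In oligodendrocyte precursors Pcdh10 was at 134 and 163 CPM in the knockout libraries, against 183 and 182 CPM in the wildtype libraries, a change of -0.29 with an edgeR adjusted p of 0.758. Pcdh8 was at 3.08 and 3.84 CPM in excitatory neurons of the knockout libraries, against 2.36 and 4.21 CPM in those of the wildtype libraries. Pcdh18 had 10 and 12 UMIs there in the knockout libraries, against 12 and 12 UMIs in the wildtype libraries. Pcdh20, of neither subgroup, was at 1.7 and 1.27 CPM in the knockout libraries, against 1.03 and 1.85 CPM in the wildtype libraries. For these 3 genes the groups overlapped and a difference was not detectable at this depth.

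Pcdh15 had the largest change of any member that passed, and it was found in 1 small cluster of excitatory neurons led by Fermt1. The cluster held 108 and 77 nuclei of the knockout libraries and 93 and 96 nuclei of the wildtype libraries. Pcdh15 there was at 1160 and 1203 CPM in the knockout libraries, against 2282 and 2394 CPM in the wildtype libraries, from 590 and 331 UMIs and 1048 and 919 UMIs. The genotypes were far apart, and replicates of a genotype were close to each other. The change was -1.01 ± 0.0989 with an edgeR adjusted p of 2.08e-07, where 1.3% of all genes passed and 0.521% passed as lower. Of genes of at least 400 kb, the length group of Pcdh15, 6.56% passed as lower there. The change of Pcdh15 was -1.04 to -0.95 when each library was left out in turn. The overlapping gene Gm15398 fell in the same cluster, to 525 and 505 CPM in the knockout libraries, against 801 and 987 CPM in the wildtype libraries (-0.81 ± 0.143, edgeR adjusted p 0.00131). Gm15397, on the strand of Pcdh15, had 3 and 1 UMIs in the knockout libraries, against 21 and 10 UMIs in the wildtype libraries (-2.80 ± 0.62, edgeR adjusted p 0.0151).

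This result rests on which nuclei make up the cluster. Members were left out of the clustering, but 2 of the 10 leading genes of the cluster themselves passed between genotypes. They were Pecam1, an adhesion gene of endothelial cells, at 794.5 and 781.5 CPM in the knockout libraries, against 13.1 and 5.21 CPM in the wildtype libraries, and 5430402P08Rik at 142 and 76.3 CPM in the knockout libraries, against 2.18 and 2.61 CPM in the wildtype libraries. Fermt1 itself was at 72.8 and 65.4 CPM in the knockout libraries, against 115 and 54.7 CPM in the wildtype libraries, and overlapped. The nuclei were then clustered again without the 87 genes that passed in this cluster, a step chosen after the result was seen. Of its nuclei 84.8% then fell in a larger cluster, of which they made up 19.3%. Nuclei of L5 ET, the neuron subclass with the lowest wildtype Pcdh15 (170 CPM), made up 76% of that cluster. Pcdh15 there was at 399.5 and 379 CPM in the knockout libraries, against 530.2 and 532 CPM in the wildtype libraries (-0.45 ± 0.0945, edgeR adjusted p 0.0243). This fit thus mixes the same nuclei with L5 ET, where the change was 0.15, and is not a separate test of the result. Without the 1904 genes that passed in any cell type, 39.6% of the nuclei of the Fermt1 cluster fell in the matching cluster, of which they made up 5.41%. Pcdh15 there was at 914 and 1004 CPM in the knockout libraries, against 954 and 934 CPM in the wildtype libraries, a change of 0.0095 with an edgeR adjusted p of 0.977. Summed RNA of 6 L4/5 IT markers in the Fermt1 cluster was 429 and 512.5 CPM in the knockout libraries, against 533.5 and 513 CPM in the wildtype libraries. Whether the same kind of neuron was compared in both genotypes was not tested beyond these fits.

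Across subclasses Pcdh15 had no common direction. Of the 18, with the Fermt1 cluster among them, 10 were negative and 8 positive. In the classes it was negative in 9 of 9 and passed in 0, where 62.5% to 83.5% of genes of at least 400 kb were negative. Pcdh15 was lower in both knockout libraries than in both wildtype libraries in 3 of those 9 classes, and overlapped in 6. In the Adam33 cluster it was at 736.5 and 926 CPM in the knockout libraries, against 608 and 689 CPM in the wildtype libraries, a change of 0.33 with an edgeR adjusted p of 0.117. In the Il1rapl2 cluster of the same layers it was at 1206 and 1361 CPM in the knockout libraries, against 1524 and 1419 CPM in the wildtype libraries, a change of -0.22 with an edgeR adjusted p of 0.152. The knockout libraries were thus above in one cluster and below in the other, and neither passed. Over excitatory neurons Pcdh15 was at 777 and 936 CPM in the knockout libraries, against 878 and 855 CPM in the wildtype libraries, a change of -0.04. In inhibitory neurons it was at 592 and 682 CPM in the knockout libraries, against 770.5 and 717 CPM in the wildtype libraries, a change of -0.24 with an edgeR adjusted p of 0.255. The excitatory minus inhibitory difference was 0.23 ± 0.0604 with an edgeR adjusted p of 0.0594, where 0.818% of all genes passed. In oligodendrocyte precursors, the class where Pcdh15 was highest, it was at 2128 and 2063 CPM in the knockout libraries, against 2168 and 2189 CPM in the wildtype libraries, a change of -0.05.

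One astrocyte cluster, led by Def8, was fitted on its own after the data were seen, because it held 202 and 376 nuclei of the knockout libraries and 69 and 69 nuclei of the wildtype libraries. Pcdh15 there was at 274 and 350.3 CPM in the knockout libraries, against 512 and 713 CPM in the wildtype libraries, a change of -0.996 ± 0.284 with an edgeR adjusted p of 0.0477. In that cluster 8.63% of all genes passed. Genes of at least 400 kb had a median of -0.64, and 24.5% of them were called lower. Summed oligodendrocyte marker RNA was 299 and 317 CPM in the knockout libraries, against 1059 and 747.5 CPM in the wildtype libraries. The part of these in the Pcdh15 difference was not tested. In the remaining astrocytes Pcdh15 was at 70.7 and 87.0 CPM in the knockout libraries, against 120 and 127 CPM in the wildtype libraries, a change of -0.67 with an edgeR adjusted p of 0.112, where 0.58% of genes passed. Over all kept nuclei together, where 3.86% of genes passed, Pcdh15 was at 727 and 836 CPM in the knockout libraries, against 794 and 783 CPM in the wildtype libraries, a change of -0.03.

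**Figure D4:**
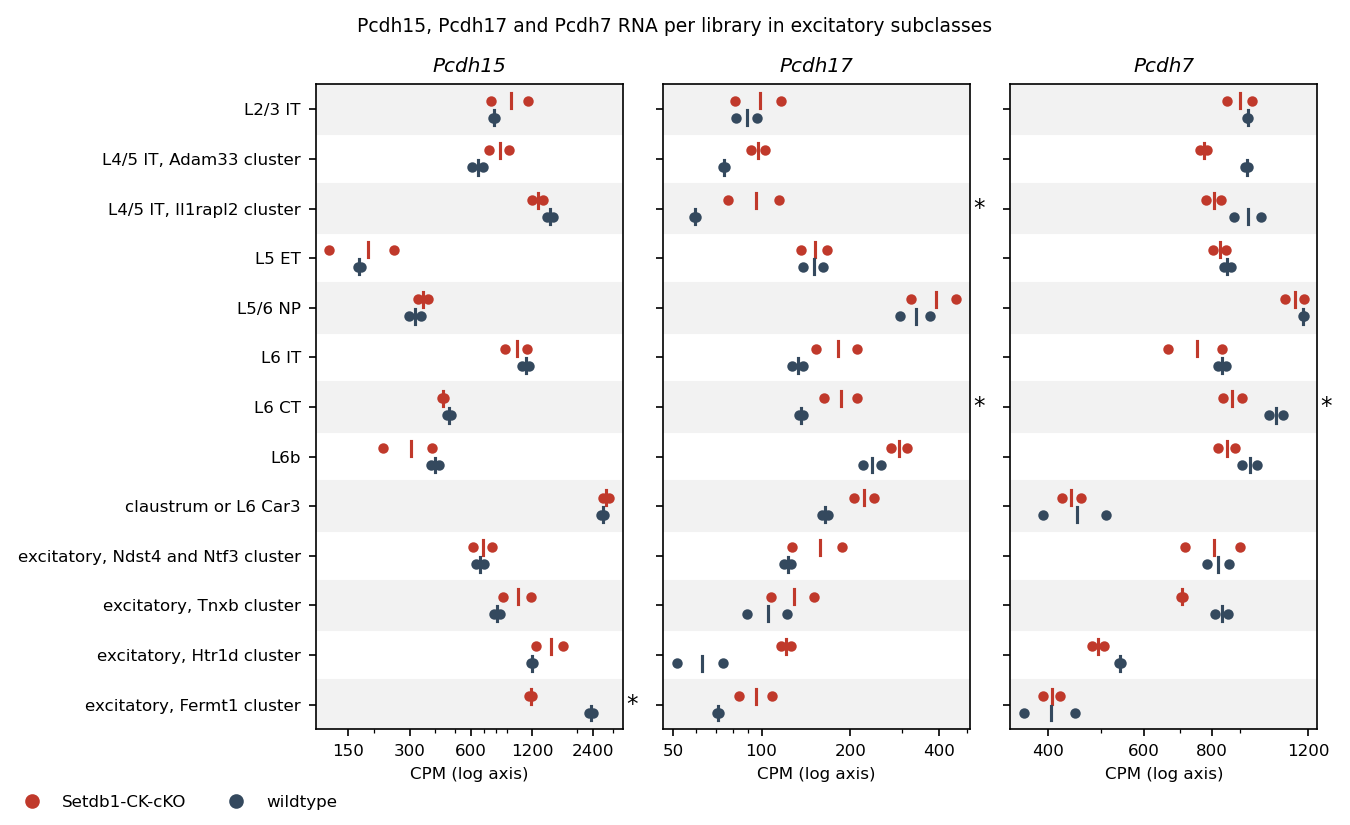
Level of Pcdh15, Pcdh17 and Pcdh7 in CPM (horizontal log axes) in each library for 13 excitatory subclasses. Within a row, knockout is drawn above wildtype. The Pcdh15 groups are far apart in the Fermt1 cluster, with means of 1182 CPM in knockout and 2338 CPM in wildtype. The knockout replicate 2 points of Pcdh17 lie furthest right in L6 CT and in the Il1rapl2 cluster.

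**Figure D5:**
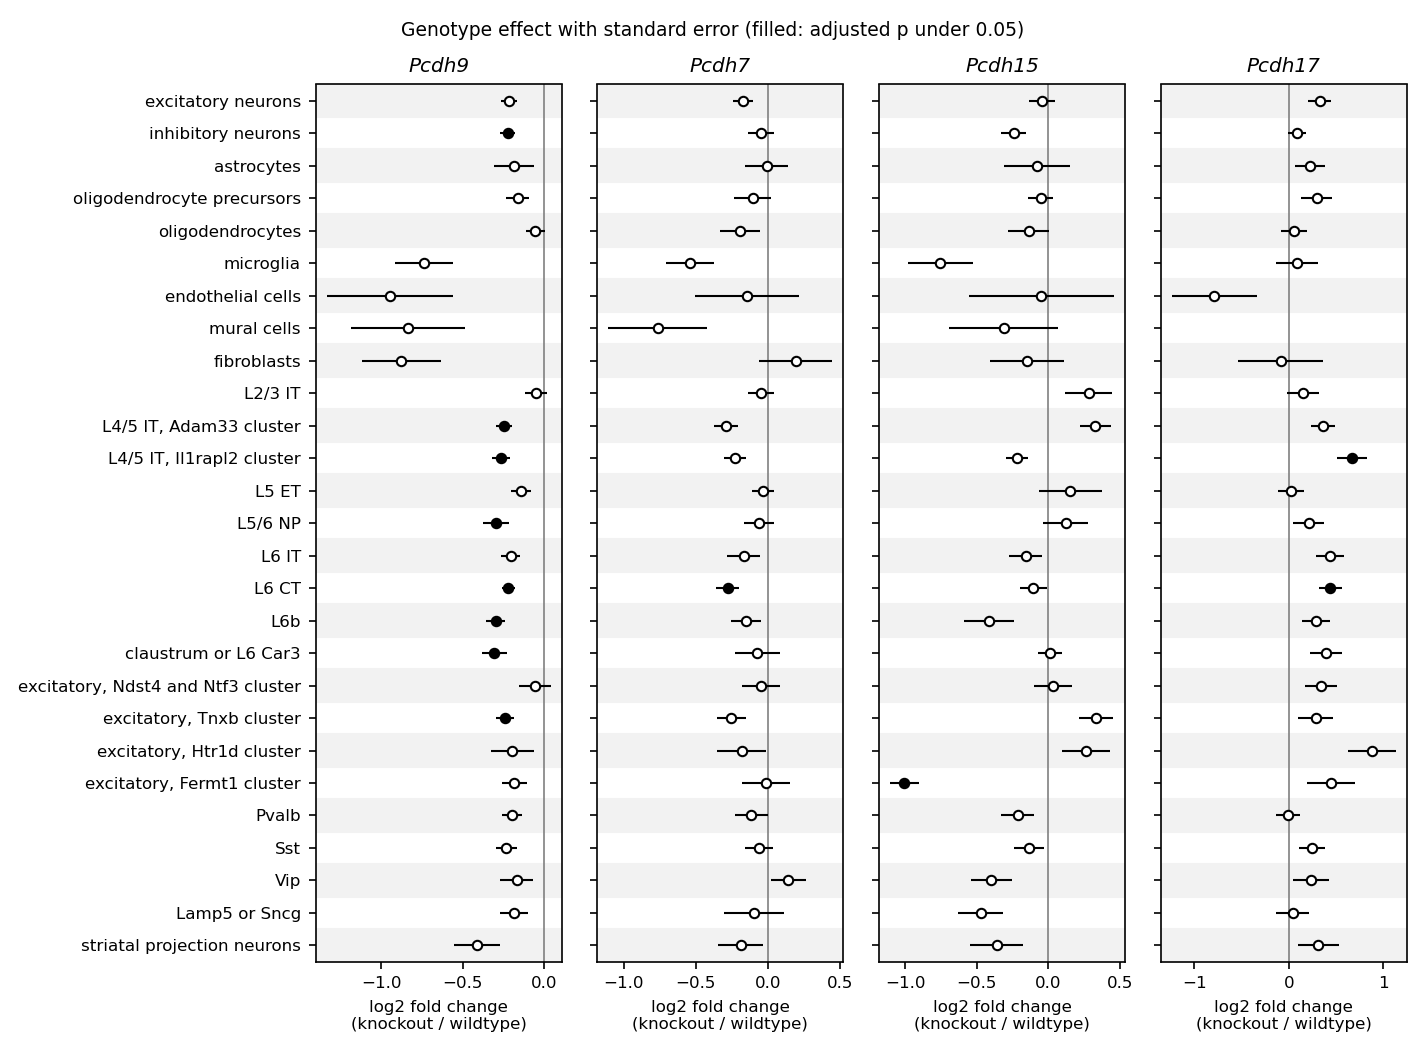
Log2 fold change, knockout over wildtype, with its standard error for Pcdh9, Pcdh7, Pcdh15 and Pcdh17 in each tested class and subclass; filled points have an edgeR adjusted p under 0.05. Pcdh9 lies left of 0 throughout, Pcdh17 lies right of 0 in 17 of 18 subclasses, and the Pcdh15 value of the Fermt1 cluster, -1.01, stands apart from its other subclasses.

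The effect in excitatory neurons was also set against that in each of the 8 other tested classes, and 0 members passed in any of those edgeR tests of the difference. The share of all genes that passed them was 0.818% against inhibitory neurons, 0.887% against oligodendrocytes, 0.167% against astrocytes, 0.151% against oligodendrocyte precursors, 0.128% against microglia, 0.0546% against fibroblasts, 0.0113% against endothelial cells and 0.00568% against mural cells. For the members as a group, the median change in excitatory neurons was -0.04, with 5 of 9 negative and 0 of 9 passing, beside a median of 0.0036 over all genes. Related genes were described by the same counts. The clustered protocadherins of chromosome 18 gave 25 higher and 0 lower calls among 54 tested, where 4.26% of all genes passed, with a median log2 fold change of 1.004. Of the other non-clustered protocadherins Pcdh11x and Pcdh19 were tested, at 0.12 and 0.02, and neither passed. Both sets of delta protocadherins therefore had medians near that of all genes, whereas the median of the clustered genes lay far above it.

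Among genes that act with protocadherins, none of the 11 WAVE complex genes passed (9 negative, median -0.14) and none of 10 other reported binding partners did (7 negative, median -0.09). None of 17 classical cadherins, which form adherens junctions, and none of 7 catenins, which link them to actin, passed (12 and 7 negative, medians -0.13 and -0.10). Among 12 other large cadherins Fat1, a giant cadherin of cell polarity, fell to 7.12 and 9.41 CPM in the knockout libraries, against 15.3 and 16.96 CPM in the wildtype libraries (-0.99 ± 0.157, edgeR adjusted p 0.0116). Among 14 tip link and Usher genes Tmc1, a subunit of the hair cell transduction channel that Pcdh15 binds, rose to 58.2 and 59.1 CPM in the knockout libraries, against 6.58 and 8.95 CPM in the wildtype libraries (2.89 ± 0.147, edgeR adjusted p 2.66e-05). Fat1 and Tmc1 were thus the only genes of these 6 lists to pass in excitatory neurons. In L6 CT neurons 1 of 10 binding partners and 2 of 15 classical cadherins passed as lower and 1 of 8 tip link genes as higher, where 1.19% of all genes passed as lower and 2.81% as higher.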

How the data were processed

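Nuclei of mouse cortex were profiled in 4 libraries, and the authors deposited raw UMI counts for each gene in each barcode, without normalization. The submitters' processing notes name Cell Ranger 7.1.0 and mm10. Whether introns, strand or removal of free RNA were used is not given in the sources used here. Groups follow the genotype in the labels. The members and the gene lists were chosen with earlier results of these data known.

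Nuclei were kept with 500 or more UMIs, 300 or more genes and no more than 5% of UMIs from mitochondria. Then 2464 doublets marked by Scrublet were removed and 52038 nuclei remained. Clusters were built with scanpy 1.11.5 (Python 3.11.15) from 2000 variable genes, 30 components and 15 neighbours at Leiden resolution 1.0 (classes, 31 clusters) and 1.5 (subclasses, 39 clusters). Members, mitochondrial genes, Setdb1 and genes that mark sex were left out of clustering. Clusters were named from marker lists, and those with mixed or too few markers stayed unnamed.

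UMIs were summed per library and cell type, and cell types with at least 30 nuclei in every library were tested with edgeR 4.0.16 under R 4.3.3 (glmQLFit and glmQLFTest, filterByExpr with a minimum count of 10, TMM factors, genotype alone in the design). Adjustment was over all genes of a cell type, with a threshold of 0.05. The test was checked on simulated counts. Effects in excitatory neurons and in a second class were compared by an interaction of genotype and class, with a term for the library. Alternatives were RLE factors, library totals, no filter on low counts, DESeq2 1.42.0, limma-voom 3.58.1, a replicate block, each library left out, doublets kept and nuclei with at least 1000 UMIs.

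All 9 members are named in each class where a result turns on them. From each related list the genes that passed in excitatory neurons are named, or the 6 with the smallest p where more passed; the clustered genes are given by counts only. For each member the 3 genes of most similar wildtype level are named, except 1 gene that is not reported here. Other genes and the Def8 cluster were chosen after their values were seen. Annotation came from GENCODE vM21 and promoters from RefSeq, both GRCm38.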

Additional observations from a re-analysis of the deposited data

How the results depend on the processing

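Of the 12 calls, all kept their direction under each of these settings. The number that stayed under the threshold was 12 with RLE factors, 9 with library totals alone, 10 with no filter on low counts, 2 with DESeq2, 11 with limma-voom and 11 with doublets kept. It was 6 and 9 without wildtype replicates 1 and 2 and 11 and 7 without knockout replicates 1 and 2. DESeq2 passed Pcdh9 nowhere. In excitatory neurons 0 members passed in the main edgeR test, 1 with RLE factors and 1 with limma-voom (Pcdh9 in both, adjusted p 0.0498 and 0.0451), where 0.0775, 0.139 and 0.228 were given by library totals, no filter and DESeq2. Of all genes there, 815 passed (566 higher, 249 lower), against 795 with library totals (613 higher, 182 lower), 253 with no filter, 3578 with the replicate block and 1885 without knockout replicate 1.

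Other counts of members that passed also moved. With DESeq2 they were 0 in inhibitory neurons, the Adam33 cluster, L5/6 NP, L6 CT, L6b, Car3 and Tnxb subclasses, and 1 in the Il1rapl2 cluster. With no filter they were 1 in fibroblasts, 3 in the Adam33 cluster, 0 in the Il1rapl2 cluster and 1 in L6 IT. With limma-voom they were 2 in the Adam33 cluster and 1 in the Il1rapl2 cluster, with library totals 0 in L5/6 NP and Car3 neurons, and with doublets kept 1 in Sst neurons. Leaving out 1 library at a time gave 0 to 2 in excitatory, inhibitory and striatal projection neurons, L6 CT, L6 IT and the Tnxb cluster, 0 to 1 in microglia, mural cells, L2/3 IT, L5 ET, L5/6 NP, Car3 and the Ndst4 and Ntf3 cluster, 1 to 2 in the Adam33 cluster and L6b, and 2 to 3 in the Il1rapl2 cluster. For differences between excitatory neurons and another class it gave 0 to 2 for inhibitory neurons and 0 to 1 for microglia.

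The labels do not say that a replicate number pairs animals, and it coincides with the Xist and Y-linked pattern. Deviations of same-numbered libraries from their group means correlated at 0.362 in excitatory neurons, 0.252 in inhibitory neurons, 0.273 in astrocytes and 0.235 in oligodendrocytes. With the replicate number as a block, all 12 calls were kept and more members passed: 3 in excitatory neurons, 2 in inhibitory neurons, 3 in microglia, 1 in fibroblasts, 1 in L2/3 IT, 4 in the Adam33 cluster, 4 in the Il1rapl2 cluster, 2 in L6 IT, 2 in L6b, 2 in the Tnxb cluster, 1 in Sst and 1 in Lamp5 or Sncg neurons. Among them was Pcdh15, at 0.32 in the Adam33 cluster and -0.22 in the Il1rapl2 cluster (edgeR adjusted p 0.00143 and 0.0155 with the block).

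After reclustering without the genes called anywhere, Pcdh15 gave 0.0095 in the cluster that matched the Fermt1 cluster. Nuclei of the Fermt1 cluster made up 5.41% of it, so this value is not a sign change in the same nuclei. Among refits of the same cell types, signs changed only for values that had not passed. With nuclei of at least 1000 UMIs these were Pcdh7 in astrocytes (0.015), Pcdh15 in astrocytes (0.0028), Pcdh9 in oligodendrocytes (0.0029) and Pcdh1 in microglia (0.15). With doublets kept they were Pcdh15 in astrocytes (0.055) and fibroblasts (0.19), Pcdh10 in oligodendrocytes (0.021) and Pcdh17 in fibroblasts (0.16), and without the Def8 cluster Pcdh10 in astrocytes (0.046). Leaving out 1 library at a time, the log2 fold change of Pcdh1 ran from -0.21 to 0.087 in excitatory neurons, -0.028 to 0.30 in inhibitory neurons and -0.45 to 0.46 in oligodendrocyte precursors. That of Pcdh7 ran from -0.042 to 0.0090 in astrocytes, -0.34 to 0.0068 in endothelial cells, -0.011 to 0.38 in fibroblasts, -0.18 to 0.066 in inhibitory neurons and -0.23 to 0.00081 in oligodendrocyte precursors. That of Pcdh8 ran from -0.31 to 0.51 in excitatory neurons and -0.20 to 0.17 in oligodendrocytes, that of Pcdh18 from -0.088 to 0.20 and -0.36 to 0.52 in excitatory and inhibitory neurons, and that of Pcdh20 from -0.34 to 0.48 in excitatory neurons. That of Pcdh10 ran from -0.16 to 0.060 in astrocytes, -0.24 to 0.69 in fibroblasts, -0.057 to 0.38 in microglia and -0.046 to 0.013 in oligodendrocytes. That of Pcdh15 ran from -0.53 to 0.24 in astrocytes, -0.99 to 0.48 in endothelial cells, -0.20 to 0.091 in excitatory neurons, -0.37 to 0.093 in fibroblasts and -0.69 to 0.077 in mural cells. That of Pcdh17 ran from -1.43 to 0.53 in fibroblasts, -0.12 to 0.30 in microglia and -0.025 to 0.14 in oligodendrocytes, and the excitatory minus inhibitory difference of Pcdh9 from -0.081 to 0.070. The causes were not tested. Few UMIs limit Pcdh8, Pcdh18 and Pcdh20 in all cell types, and few nuclei limit the vascular cells.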

Other observations

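Cell types with fewer than 30 nuclei in 1 library or more were left without a test, and their values are given as measured. Committed oligodendrocyte precursors, cells on the way to becoming oligodendrocytes, held 21 and 37 nuclei in the knockout libraries, against 40 and 28 nuclei in the wildtype libraries. Pcdh7 there was at 1818 and 1821 CPM in the knockout libraries, against 1625 and 1328 CPM in the wildtype libraries. Pcdh17 was at 567 and 513 CPM in the knockout libraries, against 485 and 618.5 CPM in the wildtype libraries, from 29 and 38 UMIs and from 48 and 34 UMIs. Pcdh9 was at 2521 and 3130 CPM in the knockout libraries, against 3079 and 2929 CPM in the wildtype libraries. The genotypes overlapped for Pcdh17 and Pcdh9, and for Pcdh7 both knockout values were the higher ones.

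The Meis2 cluster of GABAergic neurons held 690 and 22 nuclei in the knockout libraries, against 321 and 109 nuclei in the wildtype libraries. Pcdh9 there was at 2147 and 1630 CPM in the knockout libraries, against 2427 and 2576 CPM in the wildtype libraries, the second knockout value resting on 44 UMIs. The Abi3bp cluster of excitatory neurons held 158 and 8 nuclei in the knockout libraries, against 184 and 174 nuclei in the wildtype libraries, and Pcdh9 was at 1608 and 1623 CPM in the knockout libraries, against 2356 and 1734 CPM in the wildtype libraries. In both clusters the knockout values of Pcdh9 lay below the wildtype values. Border macrophages held 11 and 21 nuclei in the knockout libraries, against 19 and 16 nuclei in the wildtype libraries, and Pcdh9 had 3 and 66 UMIs in the knockout libraries, against 12 and 32 UMIs in the wildtype libraries.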
